A study of Homo sapiens with 4 samples.

Results

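G2/M and mitosis genes are the 37 genes of a fixed list that encode cyclins, kinases, checkpoint and kinetochore proteins, spindle motors and other proteins of late G2 and cell division. They were found by gene symbol among 19090 genes measured on the arrays, on which they had 49 of 28264 probes. All 37 were found, 28 of them with 1 probe and 9 with several. The cells were QGP-1, an established line from a human pancreatic neuroendocrine tumour. In the PSC medium group (2 arrays) they were kept in medium conditioned by pancreatic stellate cells, which are fibroblast-like cells that lay down matrix, and in the mock group (2 arrays) they were kept without it. The labels do not state whether mock medium was conditioned without cells, so products of stellate cells and other effects of conditioning a medium cannot be told apart. Both groups had 0.1% serum for 24 h, so the comparison was made in cells short of serum. It asks whether stellate cell medium shifts the RNA of the division programme in these tumour cells.

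Cells build the mitotic machinery anew in each cycle. Transcription of these genes climbs through late S phase and G2 under the MuvB complex with MYBL2 and FOXM1. This complex acts through an element called the cell cycle genes homology region (CHR). CCAAT boxes are another known element of such promoters. Cyclin B with CDK1 starts mitosis, motors and microtubule-binding proteins build the spindle, the checkpoint waits for kinetochores to attach, and the anaphase-promoting complex (APC/C) then destroys securin and cyclin B. Because most of these RNAs are low outside G2 and mitosis, the list is widely used as a readout of how many cells are dividing. On bulk arrays, fewer dividing cells and less of each RNA per dividing cell cannot be told apart.

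Median intensity was 800 and 822 on the PSC medium arrays and 662 and 829 on the mock arrays, so the intensities were quantile normalized before log2. Levels below are normalized log2 intensities, and differences are PSC medium minus mock on that scale. Signal differs between probes for reasons other than RNA amount, so differences are taken only between arrays for the same probe. Counts of genes above the median gene level compare different probes, so they are only a rough guide to RNA amount. In at least 1 group, 33 of the 37 members lay above the median gene level of 10.13, against 52% of all genes. The exceptions were PLK1, KIF23, PTTG1 and BUB1B. Of 6 measured neuroendocrine markers 5 lay above that level, among them the hormone gene SST and the granule protein gene CHGA. SYP lay below that level, at a mean of 9.44 in PSC medium and 9.60 in mock. Of 4 leukocyte markers 1 lay above it. Of 12 stellate cell and fibroblast markers 11 lay below it, COL1A1 being the exception. The summed linear intensity of the 12 was 5404 and 5934 in PSC medium and 5688 and 4577 in mock. COL1A1, at 11.78 and 11.95 in PSC medium and 11.76 and 11.40 in mock, made up most of each sum. No marker of these 3 lists passed in limma. Nothing in the labels says that arrays of one group were separate cultures, and p-values then measure only the spread between these arrays, which may be technical.

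No member passed the test between PSC medium and mock. In limma, 0 of 37 members had an adjusted p under 0.05, while 409 of 19090 genes (2.14%) did, 1.17% of all genes as higher and 0.974% as lower in PSC medium. At an unadjusted p under 0.05, PSC medium was higher for 1 member and lower for 5, together 16.2% of the list against 22.5% of all genes (9.84% higher and 12.7% lower). Differences above 0 were found for 20 members and below 0 for 17. The median difference of the list was 0.0068, and that of all genes was -0.01. With median centring in place of quantile normalization the list's median was -0.04, and that of all genes was -0.10. Groups did not overlap for 19 of the 37 members, 12 of them higher and 7 lower in PSC medium, against 53.5% of all genes (24.5% higher and 29% lower). Among genes above the median level the shares were 27.3% for that p and 59.9% for groups that did not overlap. Over both directions together, the members' shares of 16.2% and 51.4% lay below each of these.

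The precision behind this count was limited. At the members' median standard error of 0.17, a difference of 1.01 would have been needed to pass, and no member differed by 1 or more. For 32 of the 37 members the 95% interval of the difference lay within 1 log2 unit either way, the exceptions being ASPM, KIF20A, CCNB1, CDC25C and BUB1B. The median absolute gap between arrays of a group was 0.23 for members in the PSC medium pair and 0.14 in the mock pair, and the median absolute difference between groups was 0.22.

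**Figure D1:**
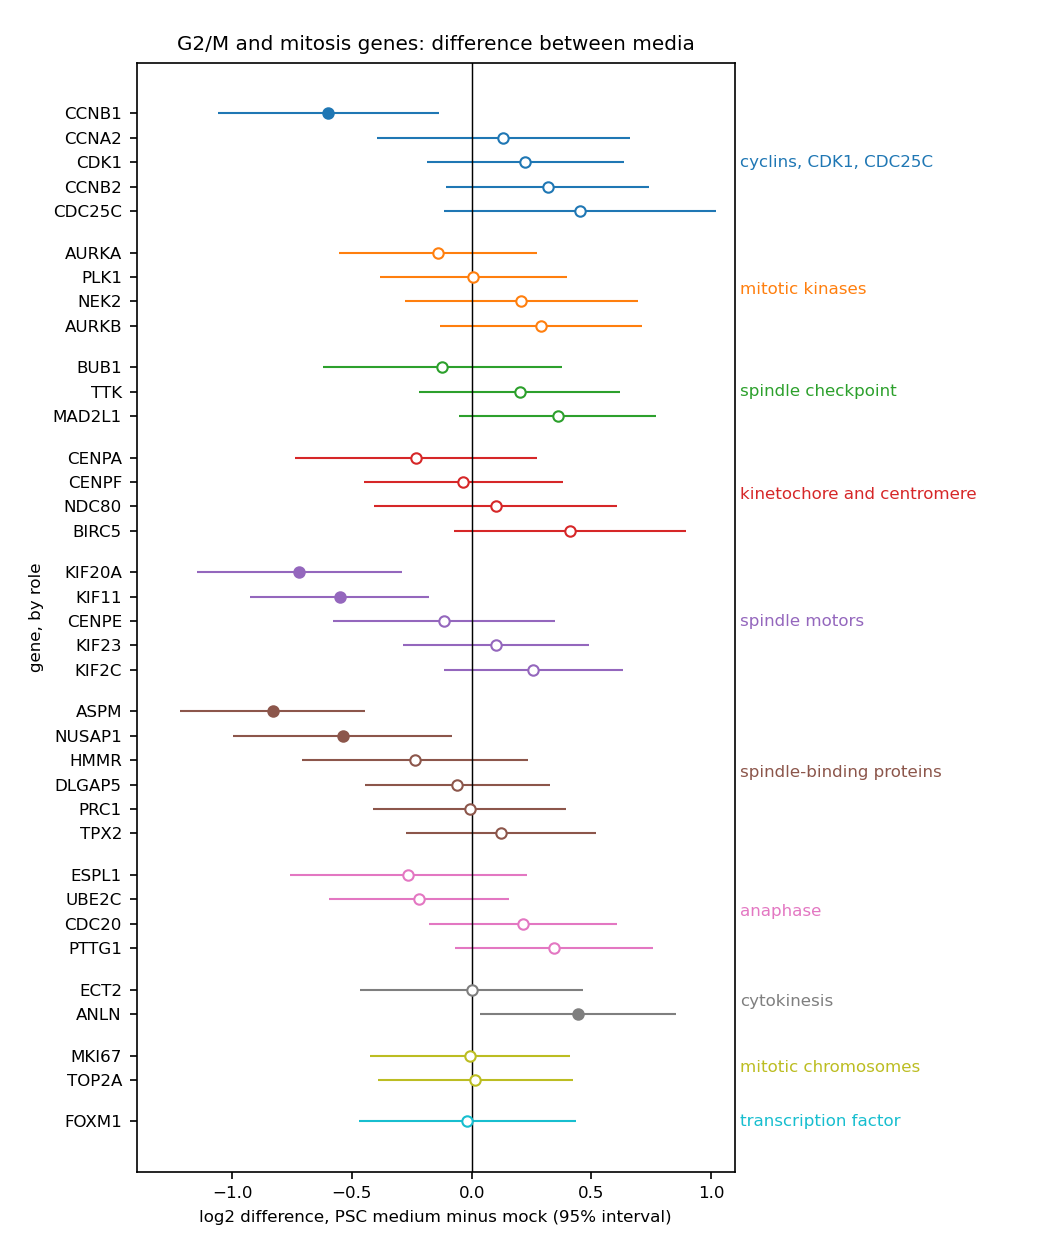
Differences of 36 members between PSC medium and mock (x axis, log2 units, with 95% intervals), grouped by role; filled points have an unadjusted p under 0.05. ASPM at -0.83 and KIF20A at -0.72 lie farthest to the left, and ANLN is the only filled point to the right of 0; BUB1B, at the floor, is not drawn.

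The 6 members with an unadjusted p under 0.05 were ASPM, KIF20A, CCNB1, KIF11 and NUSAP1, all lower in PSC medium, and ANLN, which was higher. Each of them had 1 probe. ASPM, which holds the minus ends of spindle microtubules at the poles, had levels of 12.72 and 12.55 in PSC medium, against 13.46 and 13.47 in mock. Both PSC medium arrays lay below both mock arrays. Its difference was -0.83 ± 0.16 (SE), or 0.562 times the mock intensity, with an adjusted p of 0.0598 in limma. As deposited, before normalization, its intensities were 6998 and 5970 in PSC medium, against 9572 and 12522 in mock.

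KIF20A, a kinesin of the central spindle that is needed for cytokinesis, had 12.07 and 11.80 in PSC medium, against 12.58 and 12.73 in mock. The difference was -0.72 ± 0.18 (limma adjusted p = 0.0924). KIF11, the kinesin that pushes the spindle poles apart, had 12.26 and 12.28 in PSC medium, against 12.78 and 12.86 in mock. Arrays of a group lay close together for KIF11, and the groups did not overlap for either motor. The KIF11 difference was -0.55 ± 0.15 (limma adjusted p = 0.114).

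CCNB1, the cyclin whose complex with CDK1 drives entry into mitosis, had 12.95 and 12.61 in PSC medium, against 13.47 and 13.28 in mock, a difference of -0.60 ± 0.19 (limma adjusted p = 0.144). NUSAP1, which bundles spindle microtubules near chromosomes, had 14.17 and 13.88 in PSC medium, against 14.69 and 14.45 in mock, a difference of -0.54 ± 0.19 (limma adjusted p = 0.168). In both genes the higher PSC medium array lay below the lower mock array. ANLN, the anillin gene of the cleavage furrow, had 13.21 and 13.46 in PSC medium, against 12.86 and 12.92 in mock. It was higher in PSC medium by 0.44 ± 0.17 (limma adjusted p = 0.196).

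**Figure D2:**
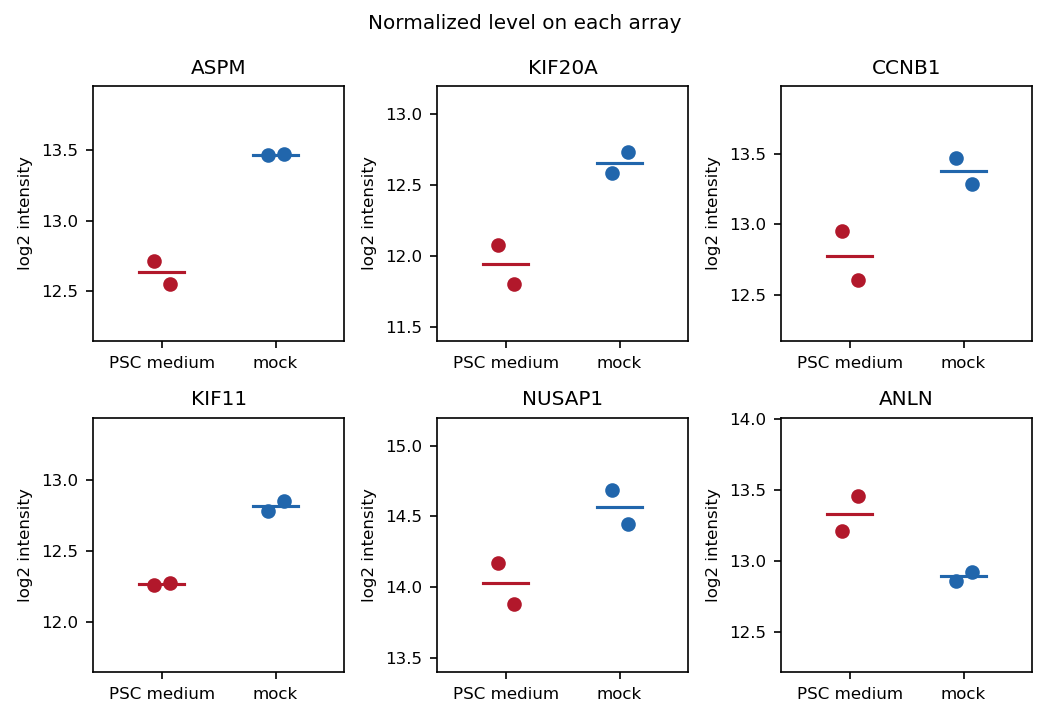
Normalized log2 intensity (y axis) of 6 members on each array, PSC medium at the left and mock at the right of each panel, with group means as lines (n = 2 arrays per group). The groups do not overlap in any panel, as for 53.5% of all genes. These 6 members were picked by an unadjusted p under 0.05 in limma on the same arrays. ASPM shows the widest gap, at 12.72 and 12.55 against 13.46 and 13.47, and ANLN is the panel with PSC medium above mock.

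Whether any of these 6 counts as changed depended on the variance model and on which genes were fitted. With a robust prior that follows intensity, ASPM, KIF20A, CCNB1, KIF11 and NUSAP1 all passed as lower (adjusted p from 0.000214 to 0.0259), so 5 of 37 members were called where 17.8% of all genes were (9.63% of all genes as lower). Leaving out genes under the median level gave the same 5 names among 33 members (adjusted p from 0.000888 to 0.0474), where 18.8% of the genes fitted were called (10.2% of the genes fitted as lower). ASPM and KIF20A passed with a constant of 50 added (9.11% of all genes), and ASPM passed without genes at the floor (4.76% of the genes fitted). ANLN did not pass under any of 13 alternative settings (lowest adjusted p 0.0849). Leaving out any 1 array gave 0 called members, and the count over all genes was then 0 to 36. The sign of each of the 6 differences was kept in all 13 settings. Most of these settings could not have turned a sign, however. Some leave the difference as it was, and leaving out 1 array keeps the sign where groups do not overlap.

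**Figure D3:**
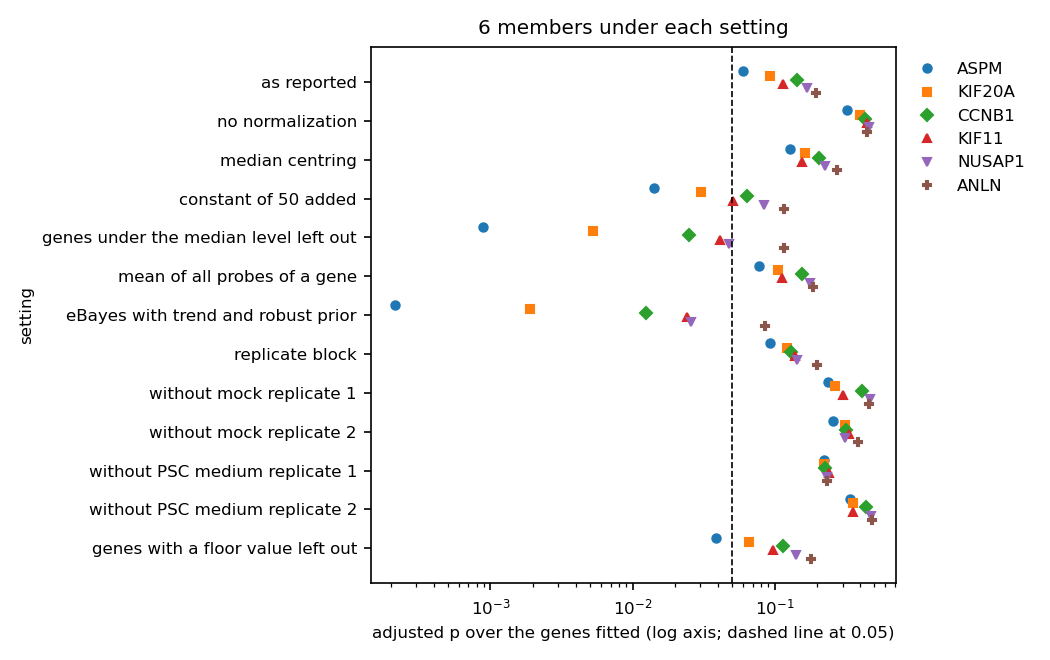
Adjusted p (x axis, log scale, dashed line at 0.05) of 6 members under the reported setting and 12 alternatives (y axis). ASPM, KIF20A, CCNB1, KIF11 and NUSAP1 lie left of the line with the trend and robust prior and without genes under the median level, and all 6 lie right of it whenever 1 array is left out.

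The stretches before the transcription start of these 6 genes are shown. CHR and CCAAT are known elements of G2/M gene promoters and were searched in the 31 members with a RefSeq promoter. Each line holds the 150 bases before the start from RefSeq (GRCh38.p14), 5′ to 3′ on the gene's strand. Capitals mark the CHR letters, which are TTTGAA on either strand or the palindrome TTTAAA, and the letters of a CCAAT box on either strand. The elements did not overlap each other in these stretches. In ANLN a pair of CHR matches on opposite strands stands side by side.
ASPM, chr1:197146670-197146819, minus strand: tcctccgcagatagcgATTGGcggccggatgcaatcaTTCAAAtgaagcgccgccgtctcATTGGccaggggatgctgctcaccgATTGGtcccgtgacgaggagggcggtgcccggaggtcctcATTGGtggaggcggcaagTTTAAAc
KIF20A, chr5:138178962-138179111, plus strand: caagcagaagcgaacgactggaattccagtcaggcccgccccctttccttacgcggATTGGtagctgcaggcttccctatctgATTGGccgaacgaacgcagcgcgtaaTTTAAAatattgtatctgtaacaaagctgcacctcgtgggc
CCNB1, chr5:69167000-69167149, plus strand: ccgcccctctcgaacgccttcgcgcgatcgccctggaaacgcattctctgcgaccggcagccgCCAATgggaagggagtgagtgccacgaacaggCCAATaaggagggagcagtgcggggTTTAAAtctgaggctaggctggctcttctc
KIF11, chr10:92592980-92593129, plus strand: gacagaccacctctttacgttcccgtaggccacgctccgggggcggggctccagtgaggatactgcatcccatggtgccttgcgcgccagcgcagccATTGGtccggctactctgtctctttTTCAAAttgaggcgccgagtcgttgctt
NUSAP1, chr15:41332731-41332880, plus strand: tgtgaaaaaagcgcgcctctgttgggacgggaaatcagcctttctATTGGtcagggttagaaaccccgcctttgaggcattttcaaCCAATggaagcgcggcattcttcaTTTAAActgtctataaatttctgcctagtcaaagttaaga
ANLN, chr7:36389712-36389861, plus strand: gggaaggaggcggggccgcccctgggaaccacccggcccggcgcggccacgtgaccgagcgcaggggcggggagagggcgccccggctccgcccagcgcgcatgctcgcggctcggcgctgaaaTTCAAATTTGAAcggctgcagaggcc

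Each of the 6 held a CHR match in this stretch. The 5 genes that were lower also held at least 1 CCAAT, and ANLN held none within 250 bases. RefSeq promoters were matched for 31 of the 37 members, with 38 start sites; AURKA, TTK, BIRC5, TPX2, UBE2C and FOXM1 were not matched. In the 250 bases before the start, 71.1% of the members' promoters held either CHR form, against 21.9% of 35116 promoters. CCAAT stood in 78.9% of the members' promoters, against 32% of all, and a CHR form with CCAAT in 60.5%, against 7.64%. Members with a difference close to 0 held these letters too: MKI67 had 2 matches of TTTGAA and 2 of CCAAT. Among members with a difference above 0, CCNB2 had 4 matches of CCAAT and CDC20 had 2, while KIF2C held neither element. A link between these letters and the direction of a difference was not tested. A match is a run of letters and not a measured site.

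Among the cyclins, CDK1 and its phosphatase, CCNB1 was the only one of 5 members with a difference below 0 on its brightest probe. CCNB2, the second B-type cyclin, had 12.64 and 12.86 in PSC medium, against 12.34 and 12.53 in mock. That is opposite in sign to CCNB1, at 0.32 ± 0.17 (limma adjusted p = 0.34), and the interval of -0.11 to 0.74 includes 0. CDK1, the kinase both cyclins bind, had 12.65 and 12.42 in PSC medium, against 12.26 and 12.35 in mock (0.22 ± 0.17). CDC25C, the phosphatase that activates CDK1, had 10.44 and 10.87 in PSC medium, against 9.99 and 10.42 in mock. After normalization its groups did not overlap, but the gap within each group was nearly as wide as the difference of the means. That difference was 0.45 ± 0.23 (limma adjusted p = 0.311). As deposited, its intensities overlapped, at 1429 and 1916 in PSC medium, against 865 and 1474 in mock. CCNA2, the cyclin of S and G2 phase, had 11.66 and 11.14 in PSC medium, against 11.33 and 11.21 in mock, with overlapping groups. A dimmer CCNA2 probe was at -0.31.

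Of 4 mitotic kinases, 0 passed, and 3 differences were above 0. PLK1, which acts at centrosomes, kinetochores and the midbody, had 8.76 and 8.81 in PSC medium, against 8.69 and 8.86 in mock, with the PSC medium arrays between the mock arrays. AURKA, the kinase of spindle poles, had 12.59 and 12.42 in PSC medium, against 12.74 and 12.55 in mock (-0.14 ± 0.17). AURKB, the kinase of the chromosomal passenger complex, had 13.09 and 12.93 in PSC medium, against 12.84 and 12.60 in mock. Its groups did not overlap, and the difference was 0.29 ± 0.17 (limma adjusted p = 0.377). NEK2, which splits centrosomes, was at 0.21 ± 0.20 on its brightest probe with overlapping groups.

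Among the spindle checkpoint genes 0 of 4 passed. MAD2L1, which holds CDC20 inactive until kinetochores are attached, had 14.80 and 14.93 in PSC medium, against 14.40 and 14.62 in mock, a difference of 0.36 ± 0.17 (limma adjusted p = 0.273). TTK, the kinase that starts checkpoint signalling, was at 0.20 ± 0.17, and after normalization neither group of MAD2L1 or TTK overlapped the other. As deposited, the TTK intensities overlapped. BUB1, a checkpoint kinase of kinetochores, had 11.98 and 11.55 in PSC medium, against 11.99 and 11.79 in mock. BUB1B, whose protein BUBR1 is part of the checkpoint complex, could not be assessed: its deposited intensities were -21 and -10 in PSC medium, against 12 and -1 in mock. Its only probe was at or near the floor after normalization on every array, so no fold is given, although it counts among the 37.

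At kinetochores and centromeres 0 of 4 members passed. CENPA, the histone variant that marks centromeres, had 12.34 and 12.81 in PSC medium, against 12.76 and 12.86 in mock, with the lower PSC medium array setting the difference of -0.23 ± 0.21. Without that array the difference was 0.0052. CENPF, a large kinetochore protein gene, was at -0.04 ± 0.17, and NDC80, which couples kinetochores to microtubules, at 0.10 ± 0.21. BIRC5, the survivin gene of the passenger complex, had 12.61 and 12.18 in PSC medium, against 12.03 and 11.93 in mock. Both PSC medium arrays lay above both mock arrays, and the difference was 0.41 ± 0.20 (limma adjusted p = 0.286).

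The spindle motors did not share a direction. Beside KIF20A and KIF11, CENPE, a kinesin that carries chromosomes to the spindle equator, was at -0.12 ± 0.19. KIF2C, which takes apart microtubules at centromeres, had 13.06 and 13.06 in PSC medium, against 12.76 and 12.85 in mock, a difference of 0.26 ± 0.15 (limma adjusted p = 0.376). KIF23, a motor of the central spindle like KIF20A, had a dim probe with 8.39 and 8.23 in PSC medium, against 8.19 and 8.23 in mock.

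Of the 6 spindle and microtubule-binding members, 5 had differences below 0. After ASPM and NUSAP1 came HMMR, a spindle pole protein gene, at -0.24 ± 0.19, DLGAP5, which stabilizes kinetochore fibres, at -0.06 ± 0.16, and PRC1, which bundles antiparallel microtubules of the central spindle, at -0.0087 ± 0.16. Groups overlapped for these 3. TPX2, which activates AURKA and nucleates spindle microtubules, had 14.01 and 14.21 in PSC medium, against 13.98 and 14.00 in mock (0.12 ± 0.16).

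Among the 4 anaphase genes 0 passed. After normalization their groups did not overlap, 2 higher and 2 lower in PSC medium, as for 53.5% of all genes, and for UBE2C and PTTG1 the direction was not settled. As deposited, the intensities of ESPL1, UBE2C and PTTG1 overlapped between groups. CDC20, the activator of the APC/C, had 13.46 and 13.58 in PSC medium, against 13.38 and 13.23 in mock (0.22 ± 0.16). UBE2C, the ubiquitin-conjugating enzyme of the APC/C, was at -0.22 ± 0.15 on its brightest probe, with a second bright probe at 0.37. ESPL1, the separase that opens cohesin, had 13.11 and 13.57 in PSC medium, against 13.60 and 13.61 in mock, a difference of -0.26 ± 0.20. PTTG1, the securin gene, was dim, with deposited intensities of 64 and 104 in PSC medium, against 78 and 71 in mock, which overlap; its normalized difference of 0.34 ± 0.17 was 0.0022 with median centring.

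The markers most often used for proliferation were close to 0. MKI67, the Ki-67 antigen gene, had 12.60 and 12.35 in PSC medium, against 12.54 and 12.42 in mock, a difference of -0.0055 with a 95% interval of -0.42 to 0.41. TOP2A, the topoisomerase that untangles mitotic chromosomes, had 14.65 and 14.71 in PSC medium, against 14.78 and 14.54 in mock, a difference of 0.02 with an interval of -0.39 to 0.42. FOXM1, the transcription factor of the programme, had 11.60 and 11.45 in PSC medium, against 11.38 and 11.71 in mock. Groups overlapped for these 3 genes and for ECT2, the RhoA exchange factor gene of cytokinesis, which had 13.85 and 14.25 in PSC medium, against 14.01 and 14.09 in mock. An interval that includes 0 does not show that the levels were equal.

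At probe level, 0 of the 49 probes passed in limma fitted over 28264 probes, of which 0.633% did. At an unadjusted p under 0.05, 8 of 49 member probes differed, 2 higher and 6 lower, against 21.8% of all probes. The 9 members with several probes had 12 further probes, 8 with the sign of the brightest probe and 4 with the opposite sign. UBE2C showed the widest disagreement among bright probes. Its brightest probe had 13.92 and 14.01 in PSC medium, against 14.17 and 14.20 in mock, while the next had 13.85 and 14.24 in PSC medium, against 13.58 and 13.76 in mock. After normalization the groups did not overlap on either probe, in opposite directions (-0.22 and 0.37). As deposited, the groups overlapped on both probes. A dimmer probe gave -0.63, so the direction of UBE2C is not settled.

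CCNA2 probes also opposed each other, at 0.13 and -0.31, and so did NEK2 probes. The normalized groups of the dimmer CCNA2 probe did not overlap. Its deposited intensities did, at 1933 and 2207 in PSC medium, against 2045 and 2827 in mock. The direction of CCNA2 is not settled either. The second NEK2 probe had 10.24 and 10.12 in PSC medium, against 10.25 and 10.43 in mock, a difference of -0.16 with normalized groups that did not overlap. As deposited, intensities of that second probe overlapped, at 1254 and 1157 in PSC medium, against 1040 and 1485 in mock. The brightest NEK2 probe was at 0.21. The opposed probe of CDK1 was near background, with deposited intensities of -4 and 11 in PSC medium, against 42 and 26 in mock, which left the brightest probe as the usable one. Both AURKB probes were higher in PSC medium, the dimmer one by 0.56 ± 0.16 (11.72 and 11.59 in PSC medium, against 11.18 and 11.02 in mock; limma adjusted p = 0.139 over probes). The BIRC5 probes gave 0.41, 0.36 and 0.11.

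**Figure D4:**
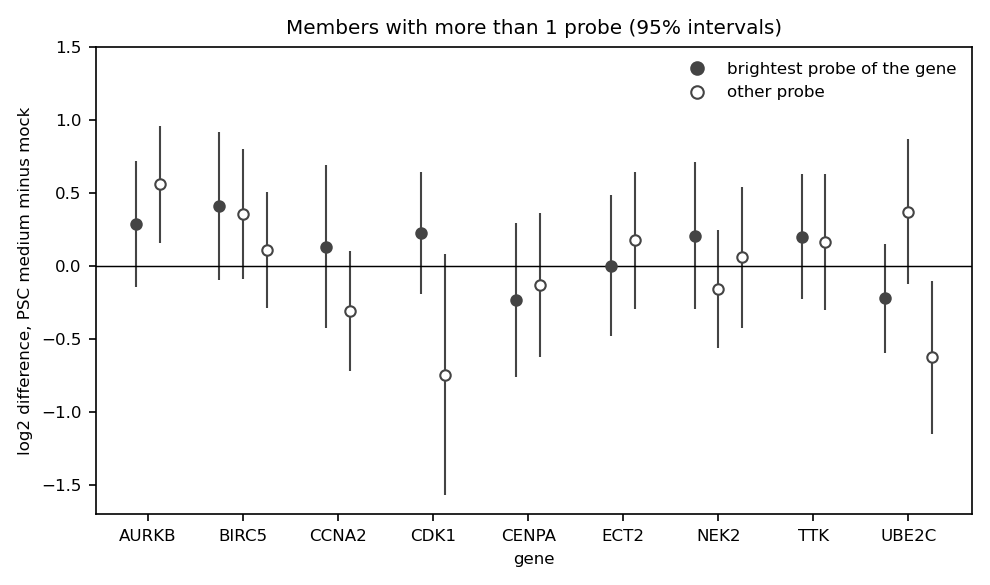
Difference between PSC medium and mock (y axis, log2 units, with 95% intervals) for each probe of the 9 members with more than 1 probe; filled points are the brightest probe of a gene. UBE2C spans -0.63 to 0.37, and the AURKB and BIRC5 probes all lie above 0.

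Other genes of the mitotic machinery were read from 11 further lists with 132 measured genes, of which 0 passed in limma. An unadjusted p under 0.05 was found for 21 of them with a higher and 11 with a lower level in PSC medium, against 9.84% and 12.7% of all genes. Their median difference was 0.09. Values of these lists are from the brightest probe of each gene. Of the 132 genes 96 had 1 probe, and further probes of the rest, CKS1B and ENSA among them, were not compared. The condensin genes NCAPH (0.80 ± 0.15, adjusted p = 0.0603) and NCAPG2 (0.87 ± 0.17, adjusted p = 0.0661), whose proteins compact mitotic chromosomes, had the smallest p of these lists. NCAPH had 12.13 and 12.22 in PSC medium, against 11.37 and 11.37 in mock. TUBG1, the gamma-tubulin gene of centrosomes, was at 0.76 ± 0.15, CKS1B, which encodes a CDK-binding subunit, at 0.71 ± 0.16, and ENSA, an inhibitor of the phosphatase that opposes CDK1, at 0.73 ± 0.16.

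Of 28 measured kinetochore and centromere genes outside the 37, 21 had differences above 0 (median 0.25) and 0 passed. An unadjusted p under 0.05 was found for 7 that were higher and 1 that was lower. Together these were 28.6% of the list, against 22.5% of all genes (9.84% higher and 12.7% lower). Of the 28 genes, 25 lay above the median level, and 27.3% of all genes above it reached that p. ZWINT was at 0.64 ± 0.16 and CENPL at 0.67 ± 0.18. The APC/C list was split, with 2 higher and 4 lower at that p among 17 genes (35.3%), of which 13 lay above the median level. Its scaffold subunit gene ANAPC4 was at -0.71 ± 0.17 and the small subunit gene CDC26 at 0.69 ± 0.17. Spindle assembly genes were split too (1 higher and 3 lower of 17, or 23.5%), with the augmin subunit gene HAUS5 at -0.68 ± 0.17 and TACC3 at 0.58 ± 0.17.

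Of the 10 MuvB, DREAM and MYBL2 genes, which control the programme, 5 had differences above 0 and 5 below, with a median of 0.03. An unadjusted p under 0.05 was reached by 3 of the 10 (30%, against 22.5% of all genes and 27.3% of genes above the median level). E2F4 and MYBL2 were above 0 and RBBP4 below. RBBP4 was at -0.60 ± 0.17 and E2F4 at 0.58 ± 0.19, and neither passed. MYBL2, named here after its values were seen, had 11.60 and 11.33 in PSC medium, against 11.10 and 10.83 in mock, a difference of 0.50 ± 0.19 (limma adjusted p = 0.197). KIFC1 (0.51 ± 0.19) and KIF4A (0.43 ± 0.19) led 8 other mitotic kinesin genes, SGO1 (0.40 ± 0.16) and INCENP (0.39 ± 0.16) led 5 passenger and shugoshin genes, and NEDD1 was at -0.54 ± 0.15 among 9 centrosome genes. The other checkpoint list had ZWILCH at 0.38 ± 0.17 and ZW10 at -0.30 ± 0.19, and the other cytokinesis list had RHOA at -0.27 ± 0.20 and CIT at -0.21 ± 0.16. No gene of either list reached an unadjusted p under 0.05.

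DNA replication genes, which belong to the preceding phase of the cycle, are the closest group for comparison. Of 40 measured replication genes 35 had differences above 0 (median 0.23), against 20 of the 37 mitosis genes (median 0.0068). Differences above 0 were found for 48.2% of all genes. An unadjusted p under 0.05 was reached by 9 of the 40 replication genes, and 0 passed in limma. That was 22.5%, the same share as over all genes, against 27.3% of genes above the median level. All 9 were higher in PSC medium, against 9.84% of all genes. MCM4 (0.81 ± 0.19) and RFC5 (0.77 ± 0.19) had the smallest p. The difference between these lists was not tested.

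**Figure D5:**
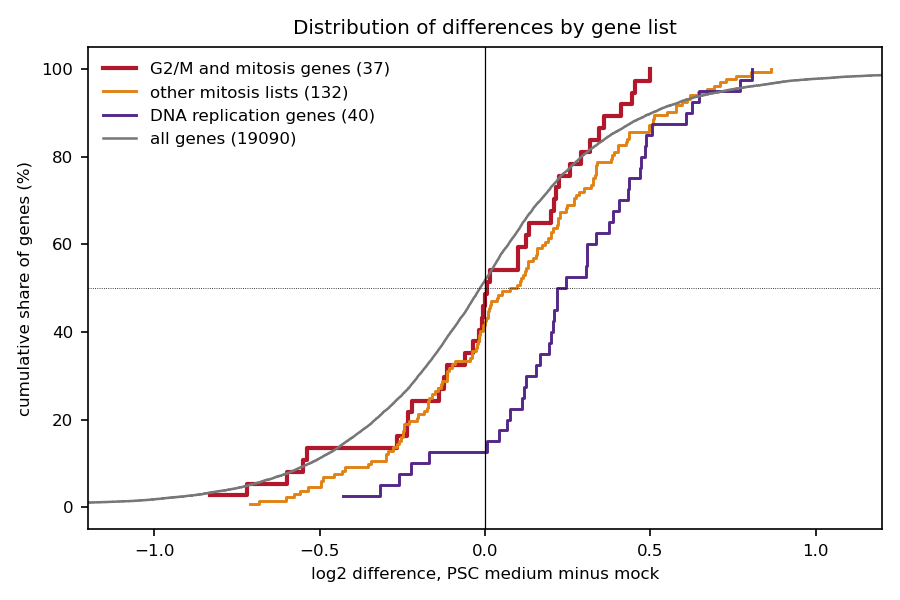
Cumulative share of genes (y axis, percent) by difference between PSC medium and mock (x axis, log2 units) for the 37 members, 132 genes of other mitosis lists, 40 DNA replication genes and all 19090 genes. The members cross 50% at 0.0068, close to all genes, and the replication genes at 0.23.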

How the data were processed

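Per the labels' protocols, RNA of QGP-1 cells was amplified, labelled with Cy5 and hybridised to 4 one-colour arrays. The deposited values are linear intensity per probe, whole numbers with some below 0, so a background had been subtracted by the authors; for the extraction software and any scaling, nothing is stated in the labels. Array medians differed by 0.325 on the log2 scale, over the limit of 0.2, so intensities were quantile normalized, set to at least 1 and put on the log2 scale. Gene symbols were taken from the platform annotation and matched by Entrez ID to RefSeq (25893 named probes matched, 2371 unnamed). The brightest probe stood for each of 19090 genes.

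PSC medium was compared with mock by limma 3.58.1 under R 4.3.3, two-sided, with lmFit and eBayes, Benjamini-Hochberg adjustment over all genes and a threshold of 0.05. The fit had 2 residual and 3.97 prior degrees of freedom. Every adjusted p is from limma. Members and lists were chosen with earlier results of these data known. Values of every array are given for members at an unadjusted p under 0.05, for leading members of each role and for others where groups or probes needed showing. Of other lists the 2 genes with the smallest p were named. On simulated data for the 19090 genes, 46% of 100 changes of 1 log2 unit and 100% of 100 changes of 2 were recovered, with 15 false calls among 18890 unchanged genes. The number of arrays limits the precision. Figures used matplotlib 3.10.9 in Python 3.11.15.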

Additional observations from a re-analysis of the deposited data

How the results depend on the processing

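Of 465 differences of 36 members over 13 alternatives (BUB1B left out), 433 kept their sign, and 15 passed the threshold, all of them lower in PSC medium. Settings that change only the threshold, the variance model or the genes fitted leave a difference as it was, so signs could not turn there. Members called numbered 2 with a constant of 50 added and at a threshold of 0.10, 5 without genes under the median level and with the trend and robust prior, 1 without genes at the floor and 0 elsewhere. All genes called numbered 409 as reported, 113 without normalization, 91 with median centring, 1740 with the constant, 1798 without genes under the median level, 93 with probe means, 3398 with the trend and robust prior, 1546 at a threshold of 0.10, 902 without genes at the floor and 0 to 36 with 1 array left out. Of the calls, 54.5% were higher as reported, 31% without normalization and 31.9% with median centring. The cause of these shifts was not tested. The replicate block left 84 genes and 0 members called; the labels do not say that the numbers pair arrays, and same-numbered arrays' deviations correlated at 0.069 over genes.

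The members' median was 0.086 without normalization (all genes 0.03), -0.044 with median centring (all genes -0.10), and 0.0052 to 0.075 with 1 array left out. Most settings could not turn the sign of the 6 members at an unadjusted p under 0.05. Signs turned for 15 members, none of them among these 6. Without normalization they were CENPF (0.040), PRC1 (0.065), DLGAP5 (0.046), MKI67 (0.056) and FOXM1 (0.051), and with median centring PLK1 (-0.0036), ECT2 (-0.044) and TOP2A (-0.026). Probe means turned CCNA2 (-0.087) and CDK1 (-0.26). With 1 array left out the range was -0.13 to 0.39 for CCNA2, -0.078 to 0.092 for PLK1, -0.012 to 0.43 for NEK2, -0.34 to 0.090 for BUB1, -0.47 to 0.0052 for CENPA, -0.13 to 0.062 for CENPF, -0.081 to 0.28 for NDC80, -0.30 to 0.066 for CENPE, -0.12 to 0.10 for PRC1, -0.13 to 0.0083 for DLGAP5, -0.20 to 0.20 for ECT2, -0.11 to 0.14 for TOP2A, -0.13 to 0.12 for MKI67 and -0.18 to 0.15 for FOXM1. Signal over background limits BUB1B and PTTG1.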
